A study of Mactra quadrangularis with 2 samples.

Results

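PIF-like unigenes are assembled transcripts whose nearest Swiss-Prot entry is Protein PIF, a matrix protein of pearl oyster nacre. The unigenes described are the 4 members Unigene56099_All, Unigene41963_All, Unigene44751_All and Unigene56729_All, written below without the suffix, out of 124752 unigenes assembled from clam digestive gland. The clam is Mactra veneriformis by the series title and Mactra quadrangularis by the organism label. The members were chosen by their IDs and this match, with their higher level in the BDE-47 library already known, so their ratios between the libraries are given as a description and were not tested. One further unigene, CL19581.Contig5, had Protein PIF as its Swiss-Prot match but was not on the list, and its values are given beside those of the members. Database names were available only for unigenes that the authors called up or down. A PIF match that they did not call would therefore not be seen here.

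The BDE-47 library came from clams kept for 3 days in seawater with BDE-47, a brominated diphenyl ether from flame retardants, with a nominal concentration of 5 µg/L in 0.05% DMSO. The control library came from clams kept in the same percentage of DMSO alone. Both groups were held at a salinity of 31 and at 16 °C. The series text describes 3 replicates of 30 clams per group and pooled glands, whereas the tables hold 1 library per group. Exposure therefore cannot be told apart from any other difference between the pools, and every interval below covers counting error only.

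In the pearl oyster, PIF is made as a precursor that is cut into a part with a von Willebrand factor type A domain and chitin-binding domains and a part that binds aragonite. Shell matrix proteins of bivalves are secreted mainly by the mantle epithelium, while the digestive gland takes up and breaks down food and handles foreign compounds. Shells of Mactra have no nacre, so the name PIF marks the nearest database entry and not a known role in this clam.

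The database matches placed the 4 members near PIF by different routes. In the authors' deposited table, Unigene41963 had the highest Swiss-Prot alignment score to PIF among the members, 137 bits with an E-value of 9e-32. Unigene56099 scored 107 bits with an E-value of 7e-23, and Unigene56729 scored 100 bits with an E-value of 8e-21. These 3 matched PIF of Pinctada fucata. Unigene44751 matched PIF of Pinctada margaritifera at 80.1 bits, with an E-value of 4e-14, and its KEGG name was Notch, the receptor of a cell contact signalling pathway. All 4 had a higher score in the Nr database than in Swiss-Prot, each against a different entry. Unigene56099 matched a hypothetical protein of the oyster Crassostrea gigas at 167.9 bits. Unigene41963 matched an oyster protein named for its Sushi, von Willebrand factor type A, EGF and pentraxin domains at 225.3 bits. Unigene56729 matched an oyster protein named Cartilage matrix protein at 151 bits, a name that in vertebrates belongs to a von Willebrand factor type A domain protein of cartilage. Unigene44751 matched an uncharacterized frog protein at 111.3 bits. The assembled lengths were 1580 bases for Unigene56099, 2671 for Unigene41963, 1740 for Unigene56729 and 4778 for Unigene44751. Whether the members are separate genes or pieces of one was not tested.

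All 4 members were below 1 FPKM in the control library and between 29.6 and 748 FPKM in the BDE-47 library. Levels are the authors' FPKM, the fragments per kilobase of a unigene after scaling to library depth, with exact 95% Poisson intervals computed from the fragments. Unigene56099 had 18847 fragments, or 748 FPKM (737 to 759), in the BDE-47 library, against 16 fragments, or 0.648 FPKM (0.371 to 1.05), in the control library. Unigene41963 had 9354 fragments in BDE-47, which is 219.6 FPKM (215 to 224), and 19 fragments in the control, which is 0.456 FPKM (0.274 to 0.711). Both were high in the exposed pool alone, and their intervals in the libraries lay far apart. Unigene56729 reached 31.7 FPKM (29.6 to 33.8) from 879 fragments in the BDE-47 library and 0.994 FPKM (0.655 to 1.45) from 27 fragments in the control. Unigene44751 reached 29.6 FPKM (28.4 to 30.8) from 2255 fragments in BDE-47, while its 65 control fragments amounted to 0.871 FPKM (0.672 to 1.11). The intervals of these members did not overlap between the libraries either, as for 13.8% of the 89164 unigenes with at least 20 fragments, in the direction of BDE-47, and nothing is read from this, since the members were chosen with these levels known. One fragment on Unigene56099 is worth 0.0397 FPKM in BDE-47 and 0.0405 FPKM in the control, so its control level rests on 16 fragments.

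**Figure D1:**
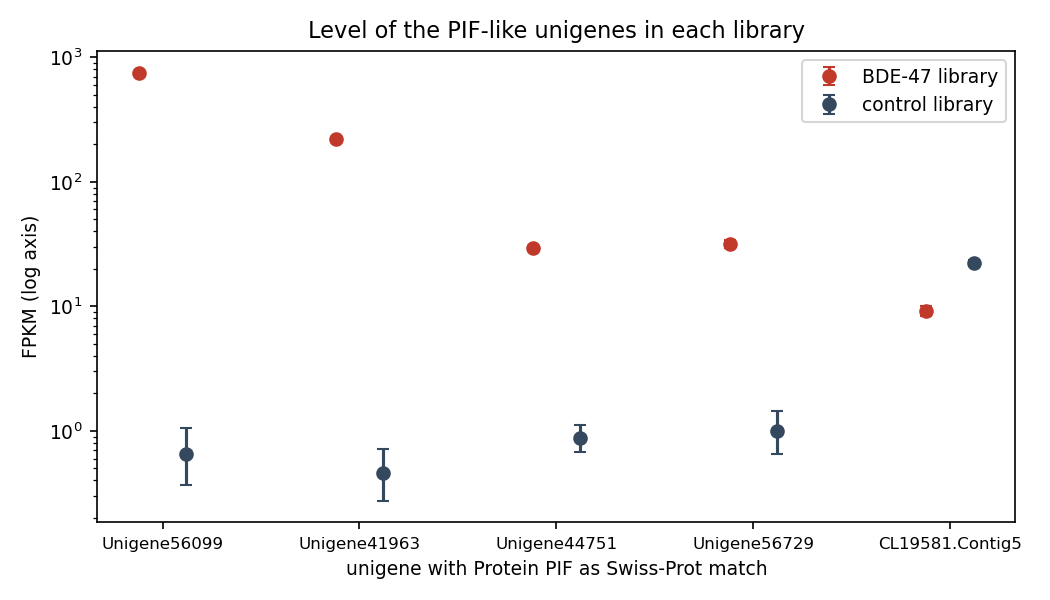
Level in FPKM on a log axis of the 5 unigenes that match PIF, in the BDE-47 library (red) and the control library (dark), with exact 95% Poisson intervals of the counts. The 4 members lie between 29.6 and 748 FPKM in BDE-47 and below 1 FPKM in the control, whereas CL19581.Contig5 lies at 9.18 FPKM in BDE-47 and 22.3 FPKM in the control.

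The order of the members by FPKM differed between the libraries, although in the control it was not resolved between neighbours. In BDE-47, the level of Unigene56099 per length was 3.41 times that of Unigene41963 (3.32 to 3.49), and that of Unigene41963 was 6.93 times that of Unigene56729 (6.47 to 7.44). Unigene56729 and Unigene44751 stood at a ratio of 1.07, with an interval of 0.989 to 1.16, so these neighbours did not differ beyond counting error. In the control none of the neighbouring members did, with ratios of 1.14 (0.700 to 1.81) for Unigene56729 over Unigene44751, 1.34 (0.768 to 2.49) for Unigene44751 over Unigene56099 and 1.42 (0.685 to 2.92) for Unigene56099 over Unigene41963. Members further apart in this order were not compared in this way. By FPKM, Unigene56099 was number 122 of all 124752 unigenes in BDE-47 and number 107559 in the control. Unigene41963 was number 283 in BDE-47 and 111836 in the control. Unigene56729 and Unigene44751 were numbers 2437 and 2679 in BDE-47 and 101195 and 103749 in the control. The members therefore spread over a wide range of levels in BDE-47, and lay close together in the control.

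The ratios of BDE-47 over control fell into a pair of high and a pair of lower values. Ratios are fragments per library total, BDE-47 over control, with exact 95% conditional binomial (Clopper-Pearson) intervals. They were 1153 (710 to 2018) for Unigene56099 and 482 (309 to 801) for Unigene41963, whose intervals overlapped. They were 34.0 (26.5 to 44.2) for Unigene44751 and 31.9 (21.8 to 48.7) for Unigene56729, and these intervals overlapped as well. Summed, the members had 31335 fragments in BDE-47 and 127 in the control, a ratio of 242 (203 to 289.9). Unigene56099 alone gave 60.1% (exact 59.6 to 60.7) of that sum in BDE-47 and 12.6% (7.38 to 19.7) in the control. Without it the ratio of the sum was 110.2 (91.4 to 134), so this unigene moved the summed ratio by more than its interval.

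A unigene was counted as higher or lower when its log2 ratio, taken of FPKM plus 0.1, reached 1 in size, when it had at least 20 fragments over both libraries, and when its ratio interval excluded 1. All 4 members passed the minimum of fragments and were higher by this rule, where 12.4% of the 89164 unigenes past the minimum were higher and 16.2% lower. With TMM scaling, 12721 were higher and 12407 lower. As the members were listed with these ratios known, nothing is read from that count. The log2 ratio of FPKM plus 0.1 was 9.96 for Unigene56099, 8.63 for Unigene41963, 4.93 for Unigene44751 and 4.86 for Unigene56729, beside a median of -0.11 over the 89164 unigenes. On this scale Unigene56099 was number 8 and Unigene41963 number 26. Unigene44751 and Unigene56729 stood at numbers 850 and 885. No other unigene had both a ratio and a BDE-47 fragment count as high as Unigene56099, and 77 unigenes in all had at least its count. The authors' deposited table calls the 4 members up, as it does 6.09% of all unigenes, and gives log2 ratios of 10.17, 8.91, 5.09 and 4.99 in the same order. Its FDR is 3.39e-215 for Unigene56729 and is listed at 0 for the others. These values come from 1 library per group, and no source used here states the test behind them.

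**Figure D2:**
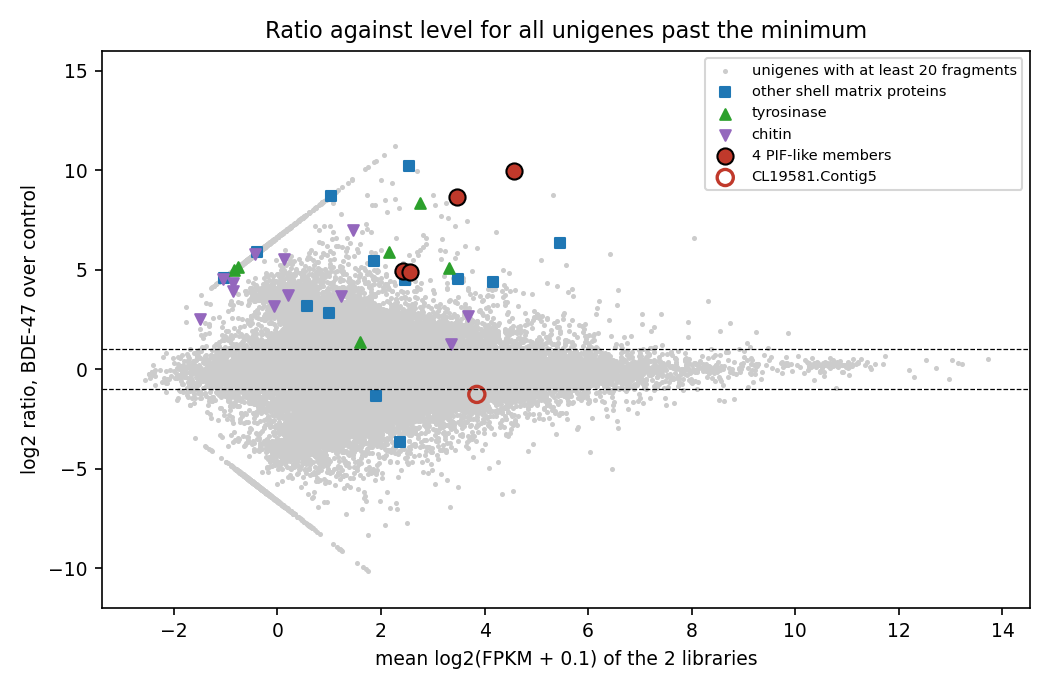
Log2 ratio of BDE-47 over control against the mean log2(FPKM + 0.1) of both libraries, for unigenes with at least 20 fragments (grey), with the 4 members, CL19581.Contig5 and 3 word lists marked and dashed lines at log2 ratios of -1 and 1. Unigene56099 (9.96) and Unigene41963 (8.63) stand at the upper edge of the cloud, and CL19581.Contig5 (-1.27) below the lower dashed line.

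The remaining PIF match among the unigenes called by the authors had the opposite direction. CL19581.Contig5, 3723 bases long, had 545 fragments or 9.18 FPKM (8.42 to 9.98) in BDE-47 and 1298 fragments or 22.3 FPKM (21.1 to 23.6) in the control. It was 2.43-fold lower in BDE-47 (2.20 to 2.69), and the authors' deposited table calls it down, as it does 8.04% of all unigenes, with a log2 ratio of -1.28. Its Swiss-Prot score to PIF was 137 bits, equal to the highest among the members, and its best Nr entry was the same oyster Cartilage matrix protein as that of Unigene56729. Thus the 2 unigenes nearest to one and the same oyster protein went in opposite directions, with ratios of 31.9 for Unigene56729 and 0.411 for CL19581.Contig5. CL19581.Contig5 held 1.71% (exact 1.57 to 1.86) of the fragments of the 5 named PIF matches in BDE-47 and 91.1% (89.5 to 92.5) in the control. Any PIF match that the authors did not call is missing from these shares and from the sum below. In the control its level was 22.5 times (15.4 to 34.2) that of the highest member. With it included, the summed fragments were 31880 in BDE-47 and 1425 in the control, a ratio of 21.9 (20.8 to 23.1).

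CL19581.Contig5 is 1 of 8 contigs numbered CL19581, and no source used here states how the assembly grouped them. One of the 8 is not reported singly here. The other 7, of which CL19581.Contig5 is the one with a description, summed to 1585 fragments in BDE-47 and 2889 in the control, a ratio of 0.537 (0.505 to 0.571). Among them, Contig6 was 3.87-fold lower (3.24 to 4.64), and Contig4, of 3910 bases, had 485 fragments in BDE-47 and 463 in the control, a ratio of 1.03 with an upper limit of 1.17. All 8 contigs together had a ratio of 1.77 (1.69 to 1.85), and the contig not reported singly is what turns the summed ratio above 1. Fragments could have been split between contigs of similar sequence in counting. None of the 4 members has an ID with such a group number.

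**Figure D3:**
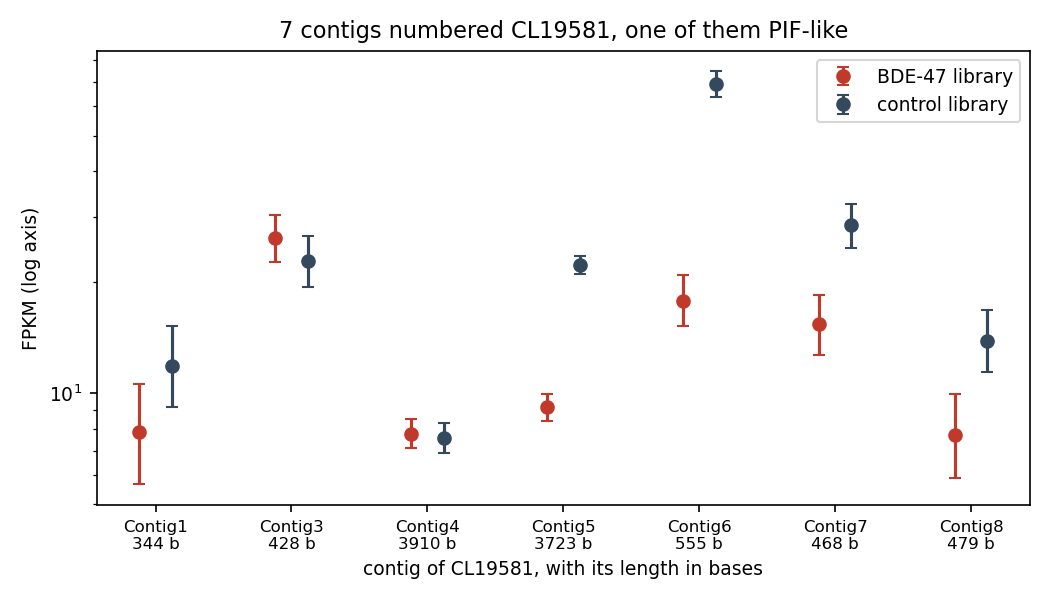
Level in FPKM on a log axis of 7 contigs numbered CL19581, in the BDE-47 library (red) and the control library (dark), with exact 95% Poisson intervals of the counts and each contig's length in bases. The PIF-like Contig5 (2.43-fold) and Contig6 (3.87-fold) are lower in BDE-47, and Contig4 (ratio 1.03) is at nearly the same level in both.

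Unigene41963 shared its Nr entry with a pair of other unigenes. Unigene56698, whose Swiss-Prot match is a human protein with Sushi, von Willebrand factor type A, EGF and pentraxin domains, had 12117 fragments in BDE-47 and 30 in the control, a ratio of 396 (277 to 586). Unigene51285, only 493 bases long, had 20 fragments in BDE-47 and 0 in the control. Its ratio was 6.53 with the control set to a floor of 3 fragments, and the exact lower limit was 4.83. All 3 were thus higher in BDE-47. Another 5 described unigenes carry the same protein name from other Nr entries, of which 1 was higher and 4 lower. Whether the 3 are parts of 1 transcript was not tested, as no sequences were used here.

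The described unigenes closest in pattern to each member were found by their Euclidean distance in log2(FPKM + 0.1) over the 2 libraries. For Unigene41963 the nearest was the same Unigene56698 at a distance of 0.35, followed by Unigene44351 at 1.03, whose match is a tyrosinase-like protein of a phenol-oxidising enzyme family. Unigene44351 had 10893 fragments in BDE-47 and 24 in the control. Unigene56099 had no close neighbour, and its nearest was Unigene41963 at 1.82, then Unigene56698 at 2.17. CL717.Contig3, named after a proline-rich protein, was the next of both, with 5925 fragments in BDE-47 and 3 in the control. Unigene44751 and Unigene56729 lay 0.20 from each other. Unigene55011, an oyster hypothetical protein with 222 fragments in BDE-47 and 7 in the control, lay 0.19 from Unigene44751 and 0.03 from Unigene56729. CL12018.Contig1, named ADP-ribosylation factor 1, a small GTPase of vesicle traffic, lay 0.23 and 0.18 from them, with 586 fragments in BDE-47 and 21 in the control. With only 2 libraries, such closeness says that levels were alike in these pools and no more.

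Other names that can belong to shell formation were compared by word lists over the 4337 described unigenes, all of which the authors had called. Of the described unigenes past the rule, 36.1% were higher in BDE-47, and the median log2 ratio of all 4337 was -1.19. Of 13 other shell matrix names, 11 were higher and 2 lower, with a median log2 ratio of 4.53. Unigene54343 and Unigene45773, named after spider and insect silk, and Unigene56538, a myosin of mantle muscle, matched the words by chance, and without them 8 were higher and 2 lower. The highest was CL7923.Contig1, with a match to amelogenin, a protein of vertebrate tooth enamel, at 5909 fragments in BDE-47 and 2 in the control (ratio 2893, interval 801 to 23895). That match scored only 56.2 bits, and its Nr match was a Drosophila protein without a descriptive name at 61.6 bits. Unigene55453, a match to the pearl oyster protein shematrin at 107 bits, had 505 fragments in BDE-47 and 0 in the control. Its ratio was 165 with the control set to 3 fragments, and the exact lower limit was 134. By Nr it matched an eggshell protein of Clonorchis sinensis at 90.9 bits. Whether this unigene and CL7923.Contig1 code for shell proteins was not tested. A cartilage intermediate layer protein 1 match, CL7653.Contig3, chosen with its values in view, was the most abundant of the list. It had 17154 fragments in BDE-47 and 206 in the control. The lower ones were both perlucin-like by Nr, a C-type lectin of nacre, but had Asialoglycoprotein receptor 2 as their Swiss-Prot match. CL12208.Contig3 had 23 fragments in BDE-47 and 305 in the control, 13.5-fold lower (8.86 to 21.7). CL1305.Contig1 had 49 in BDE-47 and 127 in the control, 2.65-fold lower (1.89 to 3.76). In contrast, the perlucin match CL7368.Contig2, also chosen with its values in view, had 792 fragments in BDE-47 and 32 in the control.

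Tyrosinases act on phenols, and the chitin names concern a polysaccharide that is part of the shell framework. Most of the chitin names are chitinases, which cleave it, and their matches do not tie them to the shell. Of 7 tyrosinase names 6 were higher, and the other, Unigene51820, had 14 fragments in BDE-47 and 0 in the control, under the minimum. CL16350.Contig2, a tyrosinase by Nr but CD209 antigen by Swiss-Prot, had 949 fragments in BDE-47 and 13 in the control, a ratio of 71.5 (41.6 to 135). All 12 chitin names were higher, with a median log2 ratio of 3.80. They included Unigene44672, with 664 fragments in BDE-47 and 3 in the control. It was an endochitinase by Nr, but had no Swiss-Prot match and valyl-tRNA synthetase as its KEGG name. Unigene56517, a chitinase match, had 369 in BDE-47 and 3 in the control (ratio 120.4, interval 40.9 to 587). Unigene51493, chosen with its values in view, matched chitin synthase, which makes the polymer, and had 26 fragments in BDE-47 and 2 in the control. Only 7 of the 12 had at least 100 fragments.

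Carbonic anhydrases, which supply bicarbonate, went both ways, with 4 higher and 2 lower. The lower ones were the abundant ones. CL3187.Contig2 had 1158 fragments in BDE-47 and 2690 in the control, 2.37-fold lower, and Unigene27262 had 1168 in BDE-47 and 2416 in the control, 2.11-fold lower. CL4919.Contig4 had 743 fragments in BDE-47 and 216 in the control, 3.37-fold higher (2.89 to 3.94). With TMM or DESeq2 scaling, 1 of the lower carbonic anhydrases no longer passed the rule. Of 51 other unigenes named for von Willebrand factor or sushi domains, 15 were higher and 35 lower, with a median log2 ratio of -1.57. Of those past the rule 30.0% were higher, beside 36.1% of the described background. Among the lower ones, CL3343.Contig3 to CL3343.Contig8 share a group number and had 2 fragments each in BDE-47. Whether they are separate transcripts was not tested, so the counts may include the same one repeatedly. Among those with at least 100 fragments, the highest besides Unigene56698 was CL212.Contig3, a von Willebrand factor D and EGF domain protein, with 10540 fragments in BDE-47 and 646 in the control (ratio 16.0, interval 14.8 to 17.3). CL212.Contig6, of the same group number, went the other way, with 47 fragments in BDE-47 and 159 in the control. The lowest with at least 100 fragments were Unigene68703, with 7 fragments in BDE-47 and 107 in the control, and Unigene69188, with 7 in BDE-47 and 105 in the control. Of 26 names in calcium binding and matrix signalling, 9 were higher and 17 lower. A calmodulin-like unigene, CL4219.Contig3, was 21.4-fold higher (9.56 to 59.3) and its companion CL4219.Contig1 3.40-fold higher, while CL2282.Contig1 was 5.37-fold lower and CL19493.Contig2, a calmodulin-dependent kinase match, 3.79-fold lower.

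**Figure D4:**
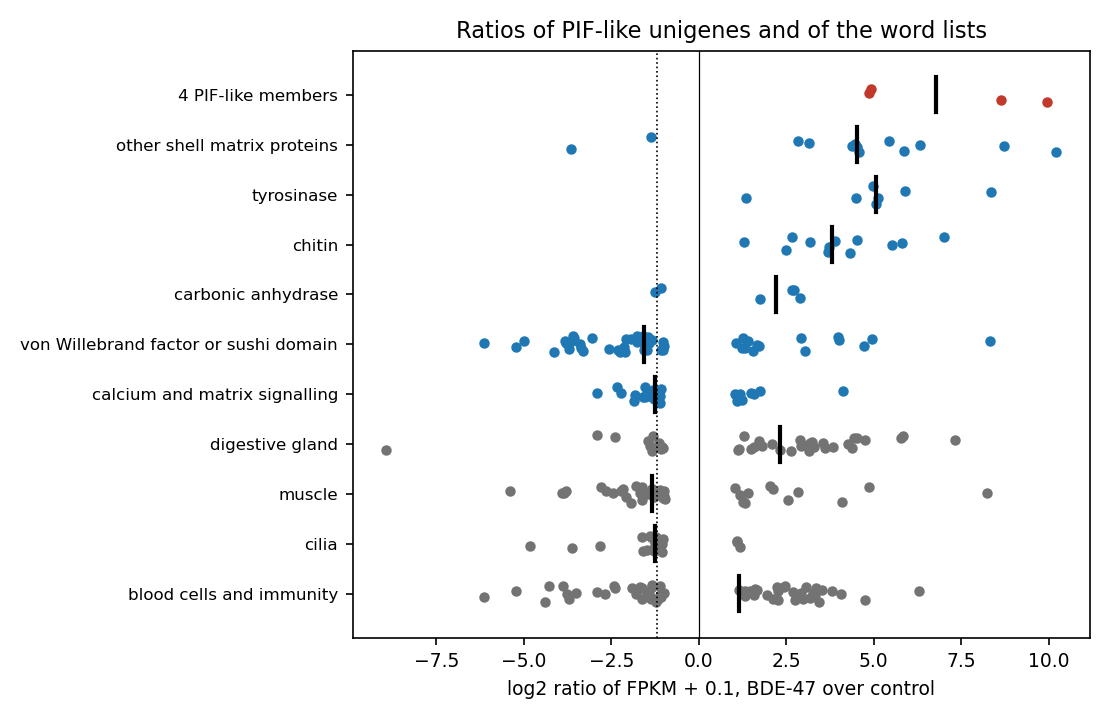
Log2 ratio of FPKM plus 0.1, BDE-47 over control, for each unigene of the 4 members (red), the 6 shell and domain lists (blue) and the 4 tissue lists (grey), with black bars at list medians and a dotted line at -1.19, the median of all described unigenes. The members and the tyrosinase and chitin names lie to the right of 0 throughout, and the gap around 0 arises because only unigenes called by the authors are described.

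Names that could mark tissues were set beside these values. In a bulk sample, a change in the number of cells of a type and a change in RNA per cell cannot be told apart. The 10 shell matrix names left without the chance matches, of a kind made mainly by mantle, summed to 829 FPKM in BDE-47 and 36.9 FPKM in the control. They ranged from 1.34 to 393 FPKM each in BDE-47 and from 0 to 18.2 FPKM in the control, where 1 of them, Unigene55453, was at 0. Of the sums, CL7653.Contig3 held 393 FPKM in BDE-47 and 4.81 FPKM in the control. CL7923.Contig1 held 201 FPKM in BDE-47 and 0.0694 FPKM in the control. Both are vertebrate protein matches that do not tie them to the mantle, and both are named with their values in view. Of the 10, 2 were lower in BDE-47. None of the 4 members was at 0. The counts that follow stand beside the 36.1% of described unigenes past the rule that were higher. Digestive enzyme names, 24 of 39 higher and 11 lower, summed to 575 FPKM in BDE-47 and 597 FPKM in the control. A cathepsin L match, CL2966.Contig2, chosen with its values in view, had 195 FPKM in BDE-47 and 391 FPKM in the control, and without it the sums were 381 FPKM in BDE-47 and 207 FPKM in the control. The words also matched a chymotrypsin inhibitor, a phospholipase receptor and neurotrypsins, so the list is a loose check of the tissue label. Muscle names, 12 of 39 higher and 24 lower, summed to 233 FPKM in BDE-47 and 244 in the control. Of these sums, CL717.Contig7, chosen with its values in view, held 64.3 FPKM in BDE-47 and 0.114 FPKM in the control. Its match to a myosin light chain kinase scored 73.2 bits. The muscle words also matched non-muscle and unconventional myosins, so this list is loose as well. Ciliary names, 3 of 23 higher and 19 lower, summed to 116 FPKM in BDE-47 and 229 in the control. The words also matched cytoplasmic dyneins and dynein-like proteins of Plasmodium, so these sums are not of cilia alone. A cytoplasmic dynein light chain match, CL2054.Contig1, had 30.9 FPKM in BDE-47 and 79.4 FPKM in the control. Another, CL3910.Contig6, had 26.2 FPKM in BDE-47 and 12.3 FPKM in the control. Both were chosen with their values in view. Blood cell and immune names, 30 of 63 higher and 28 lower, summed to 851 FPKM in BDE-47 and 607 in the control. The words also matched C1q tumor necrosis factor-related proteins at low scores, such as Unigene60366 at 48.5 bits, so this list too is loose. The part of other tissues in the PIF-like values was not tested.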

How the data were processed

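Poly(A) RNA of the digestive gland was sequenced on an Illumina instrument, per the labels' protocols, with 1 library per group. Per the submitters' processing notes, CASAVA 1.5 was used. No source used here states the assembly, alignment or counting tools. The authors deposited raw fragment counts per unigene, totalling 15.9 M in BDE-47 and 15.6 M in the control, per the file headers. The authors' FPKM values were recomputed from the counts to within 5.0e-05. The authors also deposited, for each unigene, a log2 ratio with its p-value and FDR, and alignment scores of the best database matches of the called unigenes.

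No difference between the groups was tested. Intervals are exact 95% intervals, and PCR fragments without molecular identifiers are not independent molecules. A library at 0 was set to 3 fragments. TMM factors (edgeR 4.0.16) and median-of-ratios size factors (DESeq2 1.42.0), both from unigenes with at least 20 fragments, were tried as other scalings, with pseudocounts of 1 and 0.01 FPKM and minimums of 0 and 100 fragments. The calculation of intervals and calls was checked on simulated counts with Python 3.11.15 and scipy 1.17.1.

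The members and lists were chosen with earlier results of these data known. Named are the members, any other PIF match, the 3 described unigenes nearest to each member, and up to 2 higher and 2 lower unigenes with at least 100 fragments from each shell list. Any further name was chosen with its values known, whether or not this is said beside it. Sequences of the unigenes were not used here.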

Additional observations from a re-analysis of the deposited data

How the results depend on the processing

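All 4 members were higher under each scaling, pseudocount and minimum tried, but this outcome was fixed in advance. The members were listed with log2 ratios of at least 4.86 known, and each had more fragments than the largest minimum. With a pseudocount of 1 FPKM their log2 ratios were 8.83 for Unigene56099, 7.24 for Unigene41963 and 4.03 each for Unigene44751 and Unigene56729, smaller because the added value exceeds or equals the control levels. TMM and DESeq2 scaling moved the median log2 ratio of all unigenes by 0.12 and 0.11, with 12721 higher and 12407 lower, and 12670 higher and 12442 lower, and CL19581.Contig5 then stood at -1.15 and -1.16. The ratio of summed members was 110.2 without Unigene56099 and 21.9 with CL19581.Contig5 added, both chosen after seeing the data. Over all unigenes, 17626 were higher with no minimum, and 2789 were higher and 3988 lower with a minimum of 100 fragments, as fewer unigenes could then be counted. That minimum left 7 chitin names higher, 1 carbonic anhydrase higher, 8 von Willebrand factor or sushi names higher and 18 lower, 10 calcium names lower, 11 digestive names higher and 17 blood cell names higher. TMM and DESeq2 scaling each left 1 carbonic anhydrase lower. A pseudocount of 1 left 7 digestive names lower, 1 ciliary name higher and 9 lower. Of 160 values under alternatives, 139 stayed within the limits and 21 moved. The limit was a set fold change for counts and the counting interval for ratios, so this total mixes unlike rules. It also hides a reversal, as the main setting had 11092 higher and 14421 lower. With TMM scaling the higher ones were the larger group, yet both counts stayed within the limits. No paired analysis was possible because there is 1 library per group. With 16 to 65 control fragments, counting limits each member's ratio from the control side.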

Other observations

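Names of cartilage matrix protein and collagen VI, proteins rich in von Willebrand factor type A domains, were gathered after the values were seen, because Unigene56729 and CL19581.Contig5 share a match of that kind. Of 19 such unigenes apart from the PIF matches, 13 were higher in BDE-47, 3 lower and 3 not past the rule, beside 36.1% higher among described unigenes past the rule, with a median log2 ratio of 3.38. Most were short and rare, and 5 had no fragment in the control. Most of the higher ones carried the name by Nr alone, with another protein or none as their Swiss-Prot match. Whether they hold von Willebrand factor type A domains was not tested. Summed over the 19, they had 3302 fragments in BDE-47 and 2633 in the control, a ratio of 1.23. Among 7 that had at least 100 fragments, 5 were higher and 2 lower. Unigene55742, a collagen VI match of oyster by Nr at 89 bits but a Protein NOV homolog by Swiss-Prot at 67.4 bits, had 255 fragments in BDE-47 and 7 in the control. CL7831.Contig1, a Cartilage matrix protein match by Swiss-Prot, had 665 fragments in BDE-47 and 1550 in the control, and CL1344.Contig3, a collagen VI match, had 136 in BDE-47 and 612 in the control. CL2019.Contig1, also a Cartilage matrix protein match by Swiss-Prot, had 1166 in BDE-47 and 303 in the control. CL2019.Contig4, of the same group number and with the same matches, went the other way, with 17 in BDE-47 and 57 in the control. The pair of lower ones with at least 100 fragments thus had more control fragments than any of the higher ones, and the unigenes of this kind went both ways.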
